A study of Mus musculus with 6 samples.

Results

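The enzymes described here carry pyruvate and fatty acids into the mitochondrial citrate cycle: 3 subunit genes of pyruvate dehydrogenase, 17 genes of the citrate cycle with respiratory complex II, and 17 genes of mitochondrial fatty acid oxidation. These 37 genes were chosen by name from the 19053 genes named on the array, and each was represented by its probe of highest mean signal. Of the 37, 33 were measured, that is, their probe was detected (detection p under 0.05) on at least 3 of 6 arrays; these 33 were in fact detected on all 6. Cpt1a, Sdha and Sucla2 had only probes that no array detected, and no probe was named Acsl1 in the annotation used here. None of the 33 measured enzymes differed between the genotypes at the threshold used for all genes, which 13.1% of all measured genes passed. For 31 of the 33 (93.9%) the 95% interval of the difference lay wholly within 1.5-fold in either direction, as it did for 69.5% of all genes.

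Bone marrow of mice was the source, and RNA was taken from the cells sorted by the markers B220+CD43+, which early B-lineage cells carry; the cell type is labelled pre-B. The groups were 3 samples with the genotype Fnip1-/- and 3 labelled wild type, each hybridised to its own single-colour Illumina BeadChip. Fnip1 encodes a partner of folliculin, a tumour suppressor that acts with the energy sensor AMPK. The scanner columns of the Fnip1-/- group carry the words LPAB - Yugioh KO, whose meaning beyond KO is not given, and those of the other group WT. No treatment is labelled, and the sources used here do not state strain, age or the kind of change made to the gene. The labels do not tie samples to animals, and the part of the spread behind each p-value that is technical is not known.

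Pyruvate dehydrogenase turns pyruvate into acetyl-CoA inside mitochondria. The citrate cycle oxidises acetyl-CoA and hands electrons to the respiratory chain, in part through succinate dehydrogenase, which is also complex II. Fatty acids enter by the carnitine shuttle and are shortened in repeated rounds of dehydrogenation, hydration, a further dehydrogenation and thiolysis, with the electrons of the first step passing through the electron transfer flavoprotein. Early B-lineage cells alternate between rapid division and rest, and their demand on these routes changes with stage. The comparison asked whether the transcripts of these enzymes differ between the genotypes.

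The median raw signal per array lay between 40.5 and 44.3, and between 17442 and 18294 probes were detected per array. The letters A, B and C name the arrays of each group by column order and carry no pairing. Array A of each group had male-like signal (Xist near background, Eif2s3y high) and arrays B and C female-like signal, so the groups held both in the same proportion, and each group held material of at least 2 animals. The targeted gene did not bear out its label: the brightest Fnip1 probe read higher where a null genotype was labelled, with 10.01, 9.97 and 10.06 there against 8.90, 9.11 and 9.16 in wild type (log2 signal; difference 0.95, limma adjusted p = 0.000665). The other tested Fnip1 probes also read higher there with no overlap, by 0.78 and 0.88 (limma adjusted p = 0.00118 and 0.00851). A further probe was not detected on any array. The position of the probes relative to the changed part of the gene is not known here, so the probes may check nothing. Directions are therefore stated by label, as Fnip1-null minus wild type. Of the B-lineage markers, Vpreb1, Igll1, Cd79b and Il7r were detected on all arrays, Pax5 was not well above background on any, and no probe was named Cd79a.

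Over all genes 1269 of 9679 (13.1%) passed the threshold, an adjusted p under 0.05 in limma's moderated test, with 761 higher and 508 lower (7.86% and 5.25%). Among the enzymes 0 of 33 passed in limma, and 2 (Idh2 and Pdhb) had an unadjusted p under 0.05, a share of 6.06% where all genes gave 27.3%. Under 14 of 17 other settings no enzyme passed either. The share of all genes called there was 9.39% with the series matrix values, 6.48% with these and a replicate block, 13.0% with median scaling and 4.91% with no detection filter. It was 14.1% with no background correction, 14.0% and 14.8% with stricter detection and 14.7% with a sex block. With 1 array left out it was 9.83%, 7.78% and 9.57% (A, B and C labelled Fnip1-null) and 9.11%, 8.32% and 9.20% (wild type). The other 3 settings each called 1 enzyme lower, Idh2 or Fh1, where 14.4%, 14.8% and 16.3% of all genes were called. Arrays of one group lay entirely on one side of the other group for 5 of 33 enzymes (15.2%), compared with 33.0% of all genes. Those 5 were Pdhb, Idh2, Idh3g and Suclg1, lower on all 3 arrays labelled Fnip1-null, and Sdhc, higher on all 3. The log2 difference was positive for 19 enzymes and negative for 14, with a median of 0.024, and the median over all genes was 0.012. Its median size without regard to sign was 0.092, against 0.17 over all genes and 0.17 over the 8656 genes whose probe was detected on all arrays. The interval lay within 1.5-fold (0.58 on the log2 scale) for 31 of 33 enzymes and for 69.5% of all genes. The exceptions were Idh2, whose interval reached -0.60, and Slc25a20, whose interval reached 0.96. These enzymes also varied little among arrays of one genotype: their median SD was 0.10 on the arrays labelled Fnip1-null and 0.096 in wild type, where all genes had 0.13 and 0.14. These counts describe the enzymes beside all genes and do not test whether they stand apart, and a difference that missed the threshold is not shown to be absent.

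**Figure D1:**
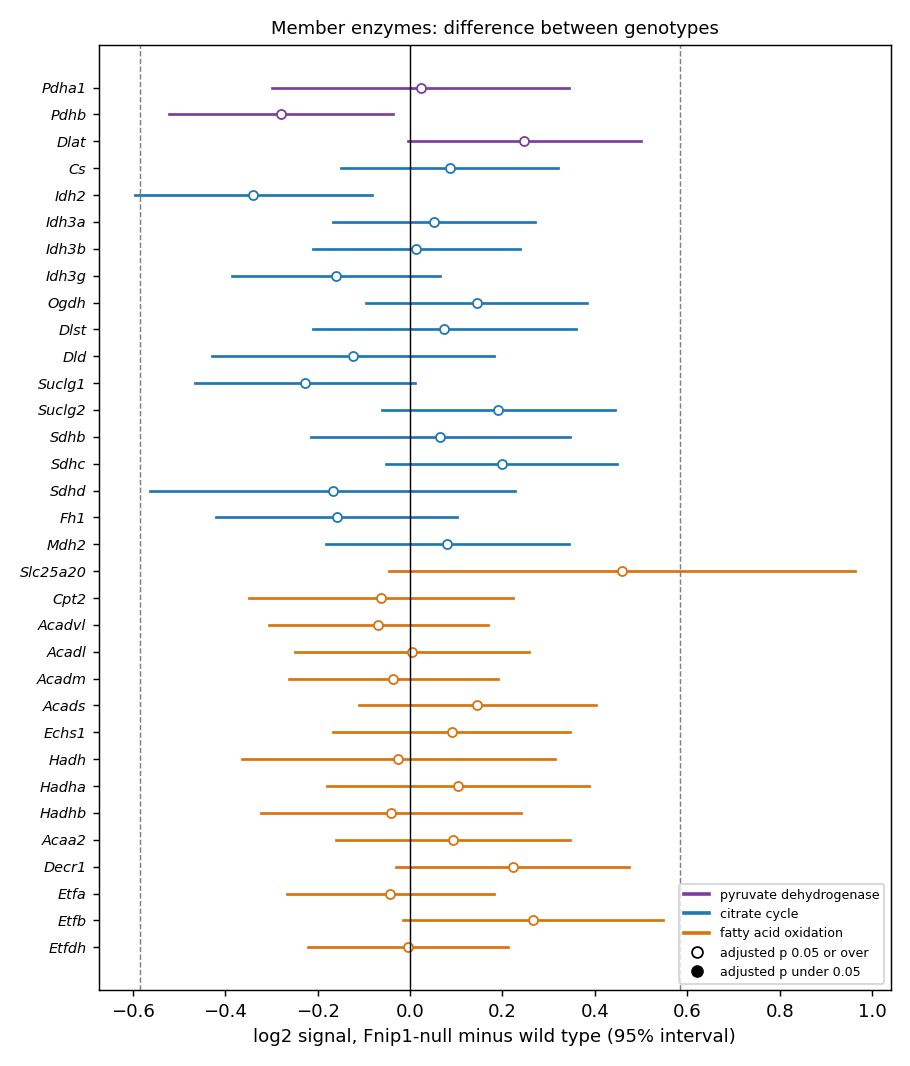
Difference in log2 signal between the arrays labelled Fnip1-null and those labelled wild type (x axis) for the 33 measured enzymes (y axis), with points for the estimate and bars for the 95% interval of the moderated test (3 arrays per group); dashed lines mark 1.5-fold. All points are open because no adjusted p was under 0.05, and only the bars of Idh2 and Slc25a20 cross a dashed line.

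By pathway, the median log2 difference was 0.024 over the 3 pyruvate dehydrogenase genes, 0.052 over the 15 measured citrate cycle genes and 0.0043 over the 15 measured genes of fatty acid oxidation. The citrate cycle held 9 positive and 6 negative differences between -0.34 and 0.20, and fatty acid oxidation 8 positive and 7 negative ones between -0.069 and 0.46. When each enzyme was set relative to its own mean over the 6 arrays, the median over all 33 stood at -0.066, 0.050 and 0.047 on arrays A, B and C labelled Fnip1-null. In wild type it stood at 0.055, -0.047 and -0.020. Array A was thus the lowest of one group and the highest of the other, and the groups overlapped.

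Promoter sequences from RefSeq (GRCm38.p6, 250 bases before to 50 after the start site) were examined for 4 motifs on both strands, because the genes of these enzymes are known to be controlled by estrogen-related receptors and nuclear respiratory factors. The table used here held a promoter for 33 of the 37 genes. The estrogen-related receptor motif TCAAGGTCA lay in 1 of the 33 (Sdhd), and in 0.466% of 27025 genes. The NRF1 half-motif GCATGCGC lay in 5 (Ogdh, Sdhb, Acadm, Etfa and Etfdh), compared with 3.05% of genes, and the log2 differences of these 5 ran from -0.043 to 0.14. CCGGAAGT, a motif of the ETS factor GABP, lay in 3 (Dlst, Slc25a20 and Cpt2), compared with 4.31%, and their differences ran from -0.063 to 0.46. The E-box CACGTG, the core that TFE3 and MYC recognise, lay in 1 (Ogdh), compared with 8.09%. A match is a run of letters and not a shown binding site. The promoters of 3 enzymes are printed on their sense strand: Idh2, which had the lowest p, Slc25a20, which had the largest difference, and Sdhd, which holds the receptor motif. Capitals mark motif matches, which in Sdhd is the reverse complement of the motif, starting at base 37 after the start site, and in Slc25a20 the GABP motif, starting at position -79. None of the 4 motifs lies in the Idh2 window.
Idh2: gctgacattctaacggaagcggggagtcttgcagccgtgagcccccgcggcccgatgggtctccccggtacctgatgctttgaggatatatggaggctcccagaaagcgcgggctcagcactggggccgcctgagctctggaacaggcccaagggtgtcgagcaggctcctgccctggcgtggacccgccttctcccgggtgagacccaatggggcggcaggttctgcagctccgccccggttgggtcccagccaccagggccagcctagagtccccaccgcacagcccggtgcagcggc
Slc25a20: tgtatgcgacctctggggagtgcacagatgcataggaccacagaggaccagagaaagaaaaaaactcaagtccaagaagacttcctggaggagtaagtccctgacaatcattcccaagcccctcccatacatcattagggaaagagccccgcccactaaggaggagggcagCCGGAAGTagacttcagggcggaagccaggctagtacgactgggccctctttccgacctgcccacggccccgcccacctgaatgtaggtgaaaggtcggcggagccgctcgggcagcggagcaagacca
Sdhd: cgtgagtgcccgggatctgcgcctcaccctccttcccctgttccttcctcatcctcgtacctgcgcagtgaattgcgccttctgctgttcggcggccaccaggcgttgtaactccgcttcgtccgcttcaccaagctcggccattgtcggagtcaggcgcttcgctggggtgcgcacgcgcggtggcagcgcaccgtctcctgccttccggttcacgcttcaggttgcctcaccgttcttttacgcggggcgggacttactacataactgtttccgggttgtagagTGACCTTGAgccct
These windows are chr7:80115301-80115600 on the minus strand for Idh2, chr9:108661886-108662185 on the plus strand for Slc25a20 and chr9:50603800-50604099 on the minus strand for Sdhd.

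Pyruvate dehydrogenase is built from the E1 subunits encoded by Pdha1 and Pdhb and the E2 acetyltransferase encoded by Dlat. Pdhb gave log2 signals of 9.55, 9.50 and 9.68 on arrays A, B and C labelled Fnip1-null and of 9.94, 9.87 and 9.75 in wild type. Every wild-type array lay above every array of the other group, by a mean of 0.28 (95% interval of the difference -0.52 to -0.038, limma adjusted p = 0.120). A further Pdhb probe stood at -0.26, likewise with no overlap, while the dimmest stood at 0.11. Dlat went the other way, with 6.54, 6.75 and 6.76 against 6.35, 6.41 and 6.54, a difference of 0.25 (interval -0.0051 to 0.50, limma adjusted p = 0.184). The lowest Dlat array labelled Fnip1-null and the highest wild-type one were level, so the groups met at that value. Pdha1, the X-linked E1 subunit gene that carries the regulatory phosphorylation sites, differed by 0.024 (interval -0.30 to 0.34). Its 2 groups spread widely, with SDs of 0.19 and 0.20. The subunits of the complex therefore gave one negative, one positive and one near-zero difference.

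The first steps of the cycle are catalysed by citrate synthase (Cs) and the isocitrate dehydrogenases. Idh2 encodes the NADP-dependent mitochondrial isocitrate dehydrogenase, a source of mitochondrial NADPH. Its signal was 9.55, 9.79 and 9.79 on the arrays labelled Fnip1-null and 10.16, 10.01 and 9.99 in wild type. The groups did not overlap, and the wild-type mean was 1.26 times the other (log2 difference -0.34, SE 0.11, interval -0.60 to -0.083). This was the enzyme nearest to the threshold (limma adjusted p = 0.0813). Idh2 passed under 2 of 17 other settings, namely normexp background correction with an offset of 50 (limma adjusted p = 0.0425) and an intensity trend with a robust prior (0.0452). Over all 17 settings its adjusted p ran up to 0.203. The NAD-dependent isocitrate dehydrogenase, the form that drives the cycle, is built from the products of Idh3a, Idh3b and Idh3g. The gene of its gamma subunit, Idh3g, is X-linked and read 12.34, 12.32 and 12.29 against 12.45, 12.41 and 12.57. All 3 wild-type arrays were higher, with a difference of -0.16 (limma adjusted p = 0.334) and -0.16 by the other tested probe. Idh3a, the catalytic alpha subunit gene, differed by 0.052 and Idh3b by 0.014, with intervals no wider than -0.21 to 0.27. Cs differed by 0.086 (interval -0.15 to 0.32).

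The 2-oxoglutarate dehydrogenase complex joins the E1 of Ogdh, the E2 of Dlst and the E3 of Dld, a subunit that pyruvate dehydrogenase shares. Ogdh read 8.05, 8.23 and 8.29 against 8.01, 8.07 and 8.06, a difference of 0.14 (interval -0.10 to 0.38, limma adjusted p = 0.419). Arrays B and C labelled Fnip1-null were above all wild-type arrays and array A was not. Dlst differed by 0.074 and Dld by -0.12. Dlst had 5 tested probes and none passed the threshold. Differences ran from -0.12 to 0.13 over the 4 detected on every array, and the dimmest was detected on 2 of 3 wild-type arrays.

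Succinyl-CoA ligase pairs the alpha subunit of Suclg1 with one of a pair of beta subunits, of which Suclg2 gives the GTP-forming and Sucla2 the ATP-forming enzyme. Suclg1 read 11.31, 11.39 and 11.51 on the arrays labelled Fnip1-null and 11.69, 11.65 and 11.56 in wild type. The groups did not overlap, though their nearest arrays read 11.51 and 11.56, and the difference was -0.23 (interval -0.46 to 0.010, limma adjusted p = 0.194). The other tested Suclg1 probe stood at -0.19 with overlapping groups. Suclg2 differed by 0.19 by its brighter probe and by -0.32 by its dimmer one, so its direction depends on the probe. The probe for Sucla2 read between 4.29 and 4.51 and was not detected on any array.

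Complex II holds the flavoprotein of Sdha, the iron-sulphur subunit of Sdhb and the membrane anchors of Sdhc and Sdhd. Sdhc read 10.38, 10.41 and 10.60 against 10.36, 10.27 and 10.17. It was the one enzyme with every array labelled Fnip1-null above every wild-type array, although the nearest pair read 10.38 and 10.36, and the difference was 0.20 (interval -0.052 to 0.45, limma adjusted p = 0.28). Sdhb differed by 0.065 (SDs 0.025 and 0.21) and Sdhd by -0.17. Sdhd, the carrier of the receptor motif printed above, ranged from 6.37 to 7.11 within the group labelled Fnip1-null, wider than the difference between the means. The single probe for Sdha was not detected on any array. Fumarase and malate dehydrogenase close the cycle. Fh1, the fumarase gene, read 10.22, 10.52 and 10.25 against 10.54, 10.42 and 10.50 by its brightest probe. Array B labelled Fnip1-null lay among the wild-type arrays, and the difference was -0.16 (limma adjusted p = 0.412). The malate dehydrogenase gene Mdh2 differed by 0.081 (interval -0.18 to 0.34).

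**Figure D2:**
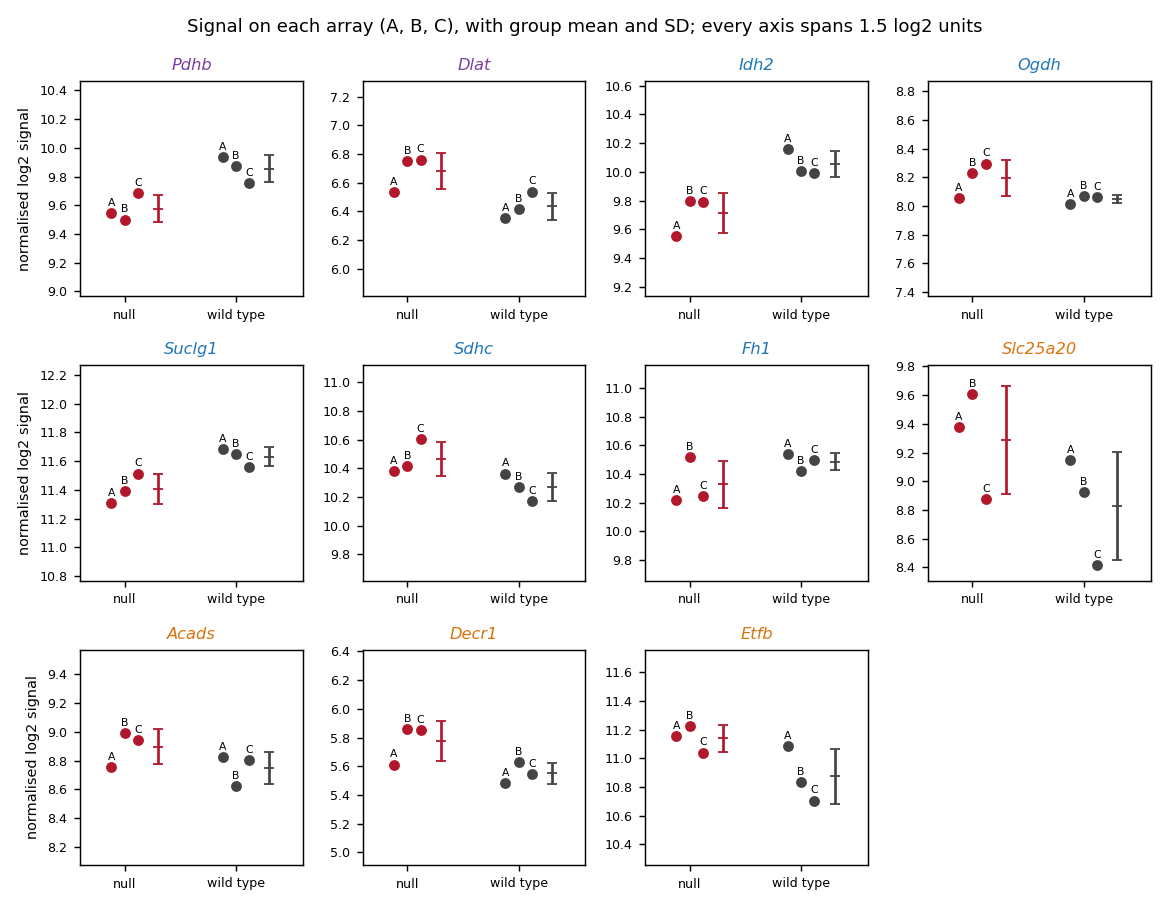
Normalised log2 signal (y axis) of 11 enzymes on each array, lettered A to C, of the groups labelled Fnip1-null (red, null) and wild type (grey). The mean and SD of 3 arrays stand beside the points. Shown are the enzyme of lowest p in each step or complex and those of lowest p or largest difference among all measured enzymes. Among them Pdhb, Idh2, Suclg1 and Sdhc show no overlap, while for Slc25a20 the arrays of each group spread over more than the gap between the means.

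Fatty acids are activated by acyl-CoA synthetases such as the product of Acsl1, loaded on carnitine by CPT1, carried across the inner membrane by the translocase of Slc25a20 and released by CPT2. Slc25a20 had the largest difference of all 33 enzymes, at 0.46, or 1.37-fold (interval 0.970 to 1.95). Its signal was 9.38, 9.61 and 8.88 on the arrays labelled Fnip1-null and 9.15, 8.93 and 8.41 in wild type. The groups overlapped, the SDs were 0.37 and 0.38, and the test did not pass (limma adjusted p = 0.215). Its other tested probe stood at 0.17, with wild-type arrays between 6.45 and 7.64. Cpt2 differed by -0.063 (interval -0.35 to 0.22). Cpt1a, which encodes the liver-type form of the rate-limiting first transferase, had 2 probes, neither detected on any array. Its muscle-type relative Cpt1b was measured and differed by -0.027 (limma adjusted p = 0.924).

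The acyl-CoA dehydrogenases take the first step of each round and differ in the chain length they accept. Acads, for short chains, read 8.76, 8.99 and 8.94 against 8.83, 8.62 and 8.80, a difference of 0.15 (interval -0.11 to 0.40, limma adjusted p = 0.448). Array A labelled Fnip1-null lay below the highest wild-type array. The other Acads probe stood at 0.23 with no overlap and did not pass (limma adjusted p = 0.203). Differences were -0.036 for Acadm (medium chains), 0.0043 for Acadl (long chains) and -0.069 for Acadvl (very long chains). The interval of Acadm ran from -0.26 to 0.19.

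The remaining steps are run by the hydratase of Echs1, the dehydrogenase of Hadh, the trifunctional protein of Hadha and Hadhb, the thiolase of Acaa2 and, for unsaturated chains, the reductase of Decr1. Decr1 read 5.61, 5.86 and 5.85 against 5.48, 5.63 and 5.55. The highest wild-type array lay just above the lowest of the other group, and the difference was 0.22 (interval -0.031 to 0.47, limma adjusted p = 0.232). The other 5 differed by between -0.041 (Hadhb) and 0.10 (Hadha). Of these, Hadh was dim, between 4.85 and 5.41, where the undetected Sucla2 probe read up to 4.51. Little can therefore be read from its small difference. Acaa2 had 4 tested probes, all positive, between 0.092 and 0.27. Echs1 stood at 0.090 by its bright probe and at 0.37 by its dim probe, which had no overlap and missed the threshold (limma adjusted p = 0.0636). The electron transfer flavoprotein takes electrons from the acyl-CoA dehydrogenases. Etfb, its beta subunit gene, read 11.16, 11.23 and 11.04 against 11.08, 10.83 and 10.71. Wild-type array A overlapped the other group, and the difference was 0.27 (interval -0.015 to 0.55, limma adjusted p = 0.199). The alpha subunit gene Etfa differed by -0.043 and Etfdh, the oxidoreductase that passes the electrons to ubiquinone, by -0.0052, with SDs of 0.018 and 0.043.

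More than 1 probe was tested for 17 of the enzymes, 42 probes in all. For 11 of the 17 every probe had the same sign, or 64.7%, and the share over the 3818 genes with several tested probes was 64.8%. Of the 58 tested probes of all 33 enzymes 1 passed, where 14.2% of all 18172 tested probes did. It was the dimmer probe of Fh1, with 6.85, 7.15 and 7.04 on the arrays labelled Fnip1-null and 7.52, 7.39 and 7.38 in wild type (difference -0.42, interval -0.67 to -0.16, limma adjusted p = 0.0413). Fh1 signal was lower by this probe on all 3 arrays, and its brighter probe pointed the same way at -0.16 with overlapping groups. The dim Etfdh probe at -0.40 rested on array C labelled Fnip1-null, which read 5.01 where the other 5 arrays read between 6.02 and 6.18.

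**Figure D3:**
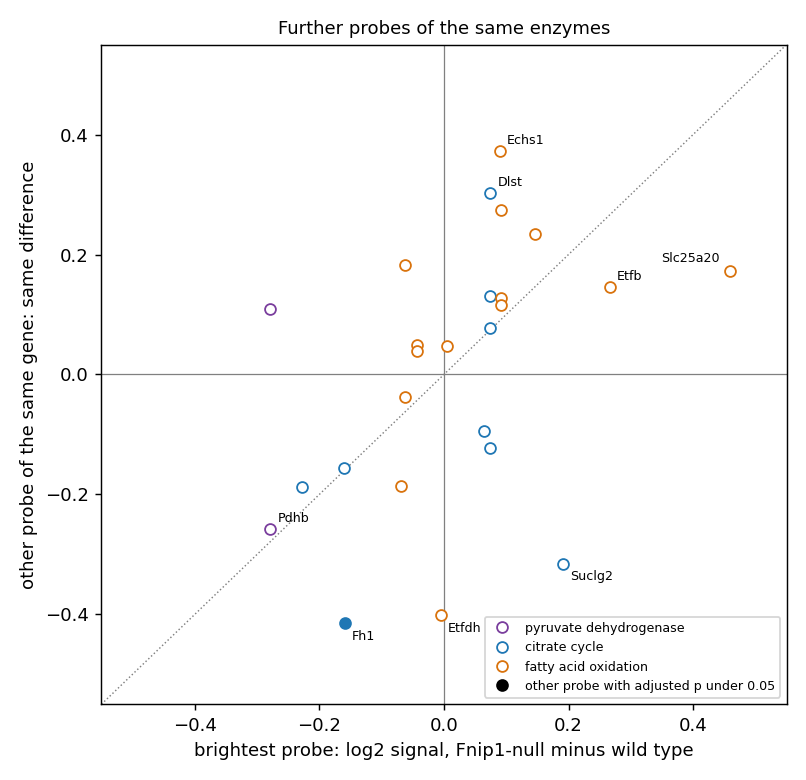
Log2 difference (arrays labelled Fnip1-null minus wild type) of the brightest probe (x axis) and of each further tested probe of the same gene (y axis), 25 further probes of 17 enzymes, with the line of equality dotted. The filled point, the dimmer Fh1 probe at -0.42, is the one with an adjusted p under 0.05. Suclg2, Pdhb, Dlst, Sdhb, Cpt2 and Etfa each have a further probe of the opposite sign.

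Other genes of the same pathways were followed from 4 lists. Of 6 measured genes of pyruvate entry 1 rose and none fell, and of 11 measured neighbours of the citrate cycle none rose and 1 fell. Of 27 other measured genes of fatty acid activation, oxidation and carnitine handling 5 rose and 1 fell, and of 9 measured PPAR and PGC-1 regulators 2 rose and none fell. Medians were 0.12, 0.039, 0.029 and -0.032, and the shares over all genes were 7.86% higher and 5.25% lower. Between 3 and 8 genes of each list had a probe that did not pass the detection filter, and 1 to 3 entries had no named probe. In the PPAR and PGC-1 list that entry was Lipin1, a second name of Lpin1, which was measured (0.022). The pyruvate carrier genes Mpc1 and Mpc2 were among the entries without a named probe.

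Pdk1, a kinase that inhibits pyruvate dehydrogenase, rose 1.70-fold (interval 1.38 to 2.10, limma adjusted p = 0.00619), with 8.33, 8.41 and 7.98 against 7.38, 7.44 and 7.59. The groups did not overlap, but the dimmer Pdk1 probe stood at only 0.27 and did not pass (limma adjusted p = 0.189). Pdpr, the regulator of the opposing phosphatase, stood at 0.35 just outside the threshold (limma adjusted p = 0.0518). The number of pyruvate entry genes that rose depended on the setting. It was 2 under several, among them no background correction and detection on all arrays, and 0 with the replicate block. The kinase and phosphatase genes Pdk2, Pdk3, Pdp1 and Pdp2 stood between -0.035 and 0.15. Sdhaf2, which inserts the flavin into complex II, fell by 0.46 on the log2 scale (limma adjusted p = 0.0196), with 8.86, 9.08 and 8.98 against 9.46, 9.45 and 9.38. Sdhaf4, another assembly factor gene of complex II, stood at 0.33 (limma adjusted p = 0.181).

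Acox3, a peroxisomal acyl-CoA oxidase gene, rose 2.01-fold (interval 1.59 to 2.55, limma adjusted p = 0.00279), with 8.26, 8.24 and 8.14 against 6.86, 7.40 and 7.36. A dimmer Acox3 probe, not well above background on any wild-type array, was 1.53-fold higher, an estimate set by the lowest detected signal of each array. That estimate is not a lower limit, as the interval of the measured difference began at 1.38-fold. Acot13, an acyl-CoA thioesterase gene, rose 1.88-fold (limma adjusted p = 0.00138), with wild-type arrays between 9.77 and 9.80 and the others between 10.50 and 10.88. Crat, which encodes the carnitine acetyltransferase that exports acetyl units, rose 1.70-fold (limma adjusted p = 0.00837), with 6.25, 6.25 and 6.17 against 5.72, 5.16 and 5.48. Slc22a5, the gene of the carnitine importer OCTN2, rose 1.32-fold (limma adjusted p = 0.0370), while its further probes stood at 0.51 and -0.14. Acad10, an acyl-CoA dehydrogenase family gene, rose 1.33-fold (limma adjusted p = 0.0435). The other Acad10 probe, detected on 2 of 3 wild-type arrays, was 1.63-fold higher by the same kind of estimate, with a measured interval from 1.36-fold. Acot2, a mitochondrial thioesterase gene whose close relative Acot1 may share its probe's signal, fell by 0.46 on the log2 scale (limma adjusted p = 0.0349). Ppargc1b, a coactivator of mitochondrial genes, rose 1.88-fold (limma adjusted p = 0.00325). Its relative Ppargc1a, detected on 1 of 3 wild-type arrays, was 2.02-fold higher by the same kind of estimate. The interval of its measured difference ran from 1.75-fold to 2.74-fold (limma adjusted p = 0.00118). The size for Ppargc1a depended on the processing: its log2 difference was 1.13 here, 0.53 with normexp at an offset of 50 and 2.22 in the series matrix values. Ppargc1a met the detection filter through the arrays labelled Fnip1-null, so its passes in the 16 alternatives that tested it are no separate support. The setting that required detection on all arrays did not test it, and there 1 gene of the PPAR and PGC-1 list rose. Sizes also moved for Crat (0.42 to 1.11 over the alternatives) and Ppargc1b (0.61 to 1.12). Of the other genes in the PPAR and PGC-1 list, Esrra stood at -0.064, Nrf1 at -0.16, Gabpa at -0.093 and Tfam at -0.15, and none passed.

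Calls with smaller differences were lost in fits with 1 array left out and under other processing. The fits with 1 array left out also called fewer of all genes, between 753 and 951, where 1269 were called with all arrays. Sdhaf2 missed the threshold without array A or C labelled Fnip1-null and without array A or B labelled wild type, with differences from -0.46 to -0.40 in those fits. Acad10 missed it without any one array labelled Fnip1-null (0.39 to 0.43) and without wild-type array A or C (0.40 and 0.33). Slc22a5 (0.33 to 0.44) and Acot2 (-0.52 to -0.37) missed it whichever of the 6 arrays was left out. Among the settings that kept all arrays, Acad10 also missed it with no background correction (0.27), normexp at an offset of 50 (0.19), median scaling (0.35), no detection filter and an intensity trend. Slc22a5 (0.43) and Acot2 (-0.60) missed it with the series matrix values, and Acot2 with no detection filter. With the replicate block on the series matrix values Sdhaf2, Acad10, Slc22a5, Acot2, Pdk1 and Crat all missed it. Without array A, B or C labelled Fnip1-null or array A or C labelled wild type, 3 genes of the fatty acid list rose in place of 5. Acox3, Acot13, Crat, Pdk1, Ppargc1a and Ppargc1b passed with each array left out in turn. These fits kept the probe filter set on all 6 arrays, which Ppargc1a met through the arrays labelled Fnip1-null.

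**Figure D4:**
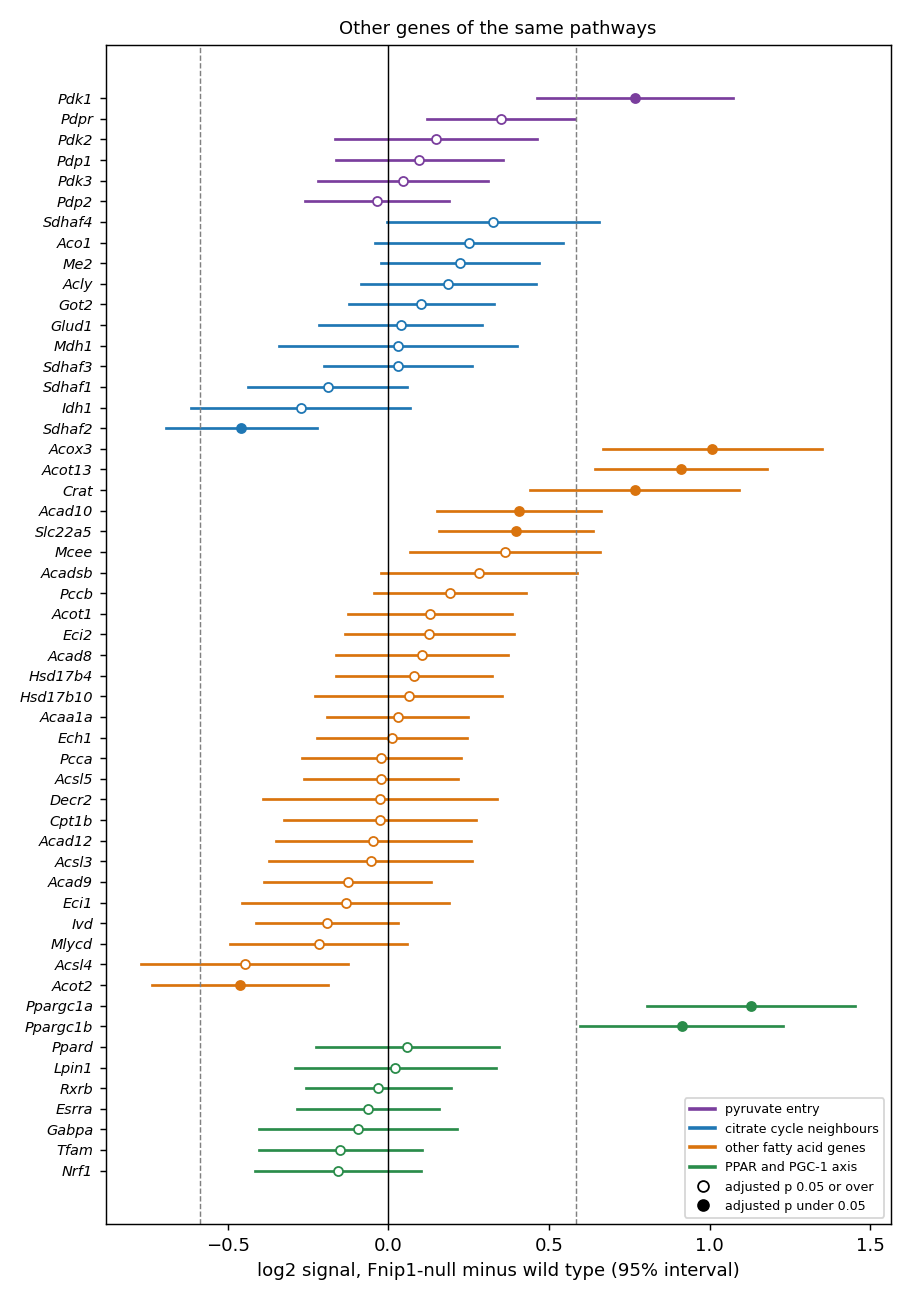
Log2 difference (arrays labelled Fnip1-null minus wild type, x axis) with its 95% interval for the 53 measured genes of the 4 further lists (y axis); filled points have an adjusted p under 0.05 and dashed lines mark 1.5-fold. Acox3, Acot13, Crat, Pdk1, Ppargc1a and Ppargc1b lie beyond the right dashed line by their estimate, whereas most points are open and lie near 0.

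In bulk RNA, fewer cells of a type and less RNA per cell cannot be told apart. Markers of other cells moved with genotype beside these calls. Of 3 basophil and mast cell markers 2 fell. The log2 of the summed signal of all 3 lay between 8.69 and 9.66 on the arrays labelled Fnip1-null and between 9.92 and 10.39 in wild type. In such sums the brightest markers count most. Of 4 measured T cell markers 1 (Cd3e) rose, with sums of 9.28 to 10.25 and 8.84 to 9.20. Of 4 monocyte markers 2 (Ccr2 and Cd14) fell, with overlapping sums of 12.52 to 13.33 and 12.86 to 13.23. Of 8 neutrophil markers 1 (Prtn3) fell, and sums ran from 13.46 to 15.22 and from 13.30 to 14.54. None of 3 measured natural killer markers and none of 2 erythroid ones passed, and Gzmb, Ncr1, Klf1 and Cd8a did not pass the detection filter. Of 9 measured B-lineage markers 3 (Rag1, Ebf1 and Cd79b) fell, 0 rose and 6 were not called, with sums of 14.68 to 14.88 and 14.60 to 14.90. These sums hide the fall of Rag1, which stood at -2.06 (limma adjusted p = 7.38e-06). Ebf1 stood at -0.52 and Cd79b at -0.49. Over all genes 7.86% were called higher and 5.25% lower. The part of these cell types and markers in the results on the enzymes and the neighbouring genes was not tested.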

How the data were processed

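The authors deposited a table of scanner output that holds, per the file headers, for 45281 probes on 6 arrays a signal intensity before normalization with its detection p-value. The authors' processed values, in the deposited series matrix, were taken as log2 from their range. The sources used here do not state its background correction, centring or log base, and the submitters' processing notes name affy without a version. Scanner columns carry the genotype but no replicate number. All 6 signal columns were used.

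Intensities were corrected with neqc (normexp from detection p-values, offset 16, quantile normalization, log2; limma 3.58.1, R 4.3.3). The 18172 probes detected (p under 0.05) on at least 3 arrays entered lmFit and eBayes, with Benjamini-Hochberg adjustment over all of them. Probe names came from the platform annotation, and symbols were updated through a RefSeq table (GRCm38.p6). Of the probes 34885 had 1 symbol, 18 several and 10378 none. Apart from the summed marker signals, one probe's level was not set against another's. The fit was also tried on simulated arrays, with no outcome reported here, so no result rests on that trial. Promoters came from the same RefSeq build.

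The members and lists were chosen with earlier results of these data known. Values on each array are given for the member of lowest p in each of 10 steps or complexes, and for the 3 of lowest p and the 3 of largest difference among all members, as well as for any member with no overlap and a log2 difference over 0.3. Other genes named are those called and the 2 of lowest p per list. Idh3g and further probes or genes outside this rule were named after their values were seen. The alternatives were the series matrix values with and without a replicate block, other background corrections, scalings, detection filters, probe choice and prior, a sex block, and each array left out.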

Additional observations from a re-analysis of the deposited data

How the results depend on the processing

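Under 14 of 17 alternatives no enzyme passed the threshold. The exceptions each called 1 enzyme lower and none higher: Idh2 with normexp at an offset of 50 and with an intensity trend, and Fh1 when the probe of largest variance stood for each gene (limma adjusted p = 0.0413). Of 33 enzymes 19 kept their sign in all alternatives run, and 533 of 560 values did. Part of this count was fixed in advance. The changed detection filters, the intensity trend and the sex block alter the test but not the difference itself. The replicate block repeats the differences of the series matrix values. Only the remaining alternatives could change a sign on their own. With median scaling the difference turned to -0.035 for Pdha1, -0.029 for Acadl, -0.072 for Idh3b and -0.0040 for Sdhb, and the median over the enzymes from 0.024 to -0.029, while that over all genes moved to -0.041. By the probe of largest variance it turned to 0.11 for Pdhb, -0.32 for Suclg2 and 0.039 for Etfa. With 1 array left out, the ranges that crossed 0 were -0.084 to 0.14 for Pdha1, -0.017 to 0.046 for Idh3b, -0.025 to 0.18 for Dlst, -0.037 to 0.17 for Sdhb, -0.36 to 0.0079 for Sdhd, -0.16 to 0.028 for Cpt2, -0.065 to 0.067 for Acadl, -0.0027 to 0.14 for Echs1, -0.15 to 0.13 for Hadh, -0.13 to 0.077 for Hadhb and -0.026 to 0.018 for Etfdh. The number of enzymes whose interval lay within 1.5-fold ran from 24 of 33 (series matrix values with the replicate block, and the probe of largest variance) to 34 of 36 (no detection filter). Over all genes 1269 were called, 753 without array B labelled Fnip1-null, 805 without array B labelled wild type and 627 with the replicate block. The block could be fitted only on the series matrix, where samples of the same number correlated at 0.171, -0.0032 and 0.228 in their deviations from the group means, and sample 2 labelled Fnip1-null correlated best with wild-type sample 3, so the numbers were not taken to pair the samples. The replicate block left 0 enzymes called, as did these values without it (909 genes called). Pdk1 (adjusted p = 0.0621) and Crat (0.0527) passed in all alternatives except the replicate block, which also ended the calls of Sdhaf2 (0.0834), Acad10 (0.0627), Slc22a5 (0.0896) and Acot2 (0.116). Of 17 alternatives Sdhaf2 passed in 12, Slc22a5 in 9, Acot2 in 8 and Acad10 in 6. The sex block called 0 enzymes. The cause of these shifts was not tested. The number of arrays, 3 per group, limits the precision, and the probes of Cpt1a, Sdha and Sucla2 were too dim to compare.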
